A study of Caenorhabditis elegans with 11 samples.

Results

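Of the 882 genes in the authors' deposited expression table, 58 have names that begin with fbxa-, fbxb-, fbxc-, bath-, math- or btb-, and these 58 are described here. They comprise 37 fbxb genes, 11 fbxa genes, 5 fbxc genes, 4 bath genes and 1 btb gene. No math gene is in the table. Members were taken by name prefix, but the families were chosen with earlier results of these data known. The table itself is limited to genes that passed both an adjusted p of 0.05 and an absolute log2 fold change of 1 in at least 1 of its comparisons. In Ensembl release 115, 412 protein-coding C. elegans genes carry such names, and 53 of them (12.9%) are listed, against 812 of all 19959 protein-coding genes (4.07%). By subfamily, 35 of 104 protein-coding fbxb genes (33.7%), 9 of 170 fbxa genes (5.29%), 4 of 48 fbxc genes (8.33%), 4 of 36 bath genes (11.1%), 1 of 17 btb genes (5.88%) and 0 of 37 math genes are listed.

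F-box proteins are the substrate receptors of SCF ubiquitin ligases: the F-box binds a Skp1-related adaptor, the adaptor binds the cullin CUL-1, and the rest of the F-box protein can hold a target that is then ubiquitinated. BTB proteins combine adaptor and receptor for a different cullin, CUL-3, and BATH proteins join a BTB domain to a MATH domain, which can bind the target. C. elegans has far more genes of these families than mammals do, many of them in tandem clusters on chromosome arms, and most of those in the fbxa, fbxb and fbxc groups have no assigned target.

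The study depleted SACY-1, the worm ortholog of the spliceosomal helicase DDX41, with an auxin-inducible degron. The germline-depleted group (3 samples, strain DG4700) carried sacy-1(tn1880), which places the aid::gfp::myc tag on SACY-1, and ieSi64, which expresses the auxin receptor TIR1 from the gld-1 promoter; its germline control (3 samples, CA1352) carried ieSi64 and unc-119(ed3) without the tag. The soma-depleted group (3 samples, DG4703) carried sacy-1(tn1880) and ieSi57, with TIR1 under the eft-3 promoter; its soma control (2 samples, CA1200) carried ieSi57 and unc-119(ed3). All were young adults kept at 20 °C for 24 hours with 2 mM auxin. Their poly(A)+ RNA came from whole worms, so soma and germline name the place of depletion and not an isolated tissue. Both transgenes also carry Cb unc-119(+). The labels list unc-119(ed3) for the control strains and not for the depleted ones, so that genotype and depletion cannot be told apart, and each group is a single strain.

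Only group means are used here, in FPKM (fragments scaled to transcript length and library size), so no value has a spread over samples, no depth per sample is known and every fold change and adjusted p is that of the authors. Replicates therefore cannot be shown or left out, and a difference between 2 group means that the authors did not compare has no test. A gene is called where the authors' adjusted p is under 0.05. The 58 genes were low: 46 never reached 10 FPKM in any group, and only bath-10, btb-17, fbxa-189 and fbxb-66 reached 20 FPKM. Their mean count over all samples had a median of 109 and ran between 42.5 and 824. Fewer cells that carry a transcript and less of it per cell cannot be told apart in RNA from whole worms. The families hold near-identical copies, and 8 of the 58 genes overlap another annotated gene; the sources used here do not say how reads were shared between such genes or whether strand was used.

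Most of the 58 genes, and all 37 fbxb genes, were higher after germline depletion, and the genes called after somatic depletion were all outside the fbxb subfamily. In the germline comparison 51 of the 58 were called, against 62.9% of all 882 listed genes; 48 were higher, against 41.8% of all listed genes, and 3 were lower, against 21.1%. In the soma comparison 9 of the 58 were called, against 59.5% of all listed genes; 5 were higher, against 29.7%, and 4 were lower, against 29.8%. The median log2 fold change of the 58 was 1.33 in the germline comparison, against 0.33 over all listed genes, and -0.15 in the soma comparison, against -0.08. The counts over all 58 rest on the fbxb genes. Without them 14 of 21 (66.7%) were called in the germline comparison, 11 higher and 3 lower, a share near that of all listed genes, with a median log2 fold change of 1.002. In the soma comparison all 9 called genes are among these 21 (42.9%), with a median log2 fold change of 0.14. Because a gene enters the table by passing in either comparison, a gene not called in the soma had to pass in the germline. Its germline log2 fold change had to be at least 1 in absolute value, which bears on the medians too. These shares and medians describe listed genes only. fbxa-189 and fbxa-185 were called in both comparisons, the first higher in both and the second lower in both.

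**Figure D1:**
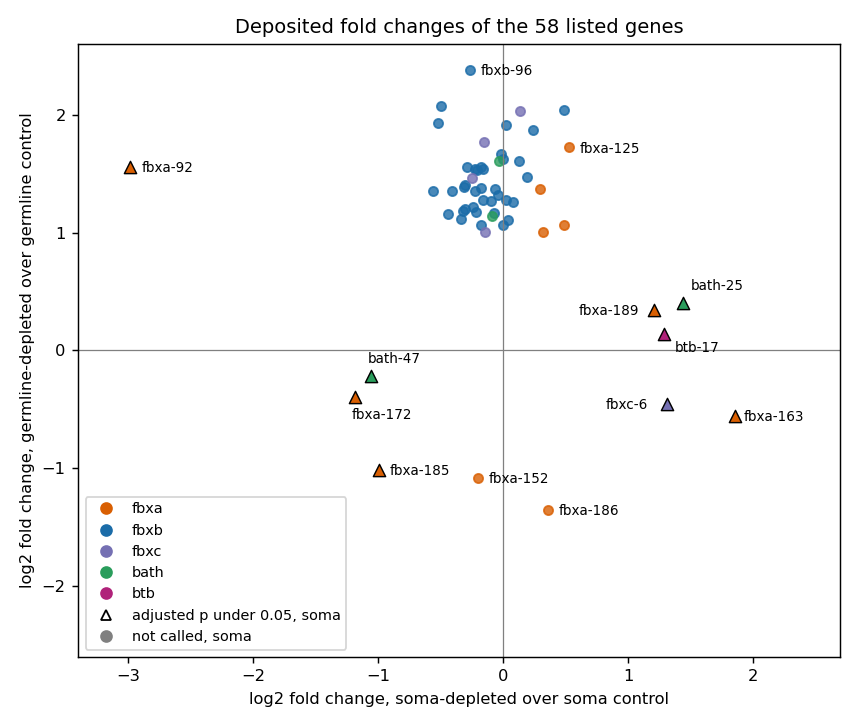
Each point is 1 of the 58 genes, by its deposited log2 fold change in the soma comparison (horizontal axis) and in the germline comparison (vertical axis), with colour for the subfamily and triangles for genes called in the soma. The 37 fbxb genes form a column between 1.06 and 2.38 on the vertical axis and between -0.56 and 0.49 on the horizontal axis, apart from the genes called in the soma. Genes not called in the soma had to reach an absolute value of 1 on the vertical axis to be listed.

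The fbxb genes, F-box genes that in C. elegans often carry an FBA2-type domain behind the F-box, shared a direction. All 37 were higher in germline-depleted worms than in germline control worms, and 0 of 37 were called in the soma comparison by the authors' DESeq2 adjusted p. Having not passed in the soma, each had to pass in the germline to be listed, so that the number called is set by the table and the direction is not. Listing also required an absolute germline log2 fold change of at least 1 for each, so the lower end of their range is set as well. Their log2 fold changes in the germline comparison had a median of 1.37 and lay between 1.06 and 2.38, which is 2.12 to 5.26 times in FPKM (median 2.59 times). Adjusted p-values in that comparison ran between 9.0e-13 for fbxb-45 and 0.0205 for fbxb-31. In the soma comparison the same 37 genes had log2 fold changes between -0.56 and 0.49 (median -0.17), with adjusted p between 0.215 and 0.999; 29 were negative and 8 positive.

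fbxb-96 had the largest germline difference of the 58 genes, with 2.58 FPKM in germline-depleted worms and 0.490 FPKM in germline control worms, beside 3.175 FPKM in soma-depleted worms and 3.80 FPKM in soma control worms. Its log2 fold change in the authors' deposited table was 2.38 (adjusted p = 5.5e-07) in the germline comparison and -0.27 (adjusted p = 0.706) in the soma comparison. The germline control was thus the low group, and the other 3 groups lay close together. fbxb-12, annotated as a pseudogene, had the same shape, at 2.86 FPKM in germline-depleted and 0.686 FPKM in germline control worms, and 2.72 FPKM in soma-depleted and 3.815 FPKM in soma control worms (germline log2 fold change 2.08, adjusted p = 2.1e-07, authors' deposited table). fbxb-38 had 3.28 FPKM in germline-depleted and 0.873 FPKM in germline control worms, against 2.96 FPKM in soma-depleted and 4.25 FPKM in soma control worms (germline log2 fold change 1.93, adjusted p = 3.6e-07, authors' deposited table); it overlaps the antisense RNA gene anr-48. For these genes germline-depleted worms stood below soma control worms and well above germline control worms.

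fbxb-85 had 5.38 FPKM in germline-depleted and 1.32 FPKM in germline control worms, with 5.50 FPKM in soma-depleted and 3.91 FPKM in soma control worms; the authors' deposited table gives a log2 fold change of 2.04 (adjusted p = 1.4e-09) in the germline and 0.49 (adjusted p = 0.302) in the soma. fbxb-3 was nearly level in the 3 groups other than the germline control, at 5.55 FPKM in germline-depleted, 5.545 FPKM in soma-depleted and 5.43 FPKM in soma control worms, against 1.47 FPKM in germline control worms (germline log2 fold change 1.91, adjusted p = 3.9e-12, authors' deposited table). fbxb-77 had 5.29 FPKM in germline-depleted and 1.44 FPKM in germline control worms, and 5.22 FPKM in soma-depleted and 4.41 FPKM in soma control worms (germline log2 fold change 1.87, adjusted p = 8.3e-10, authors' deposited table). In each of these genes the germline-depleted mean exceeded the soma control mean, while in 29 of the 37 fbxb genes it was below.

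fbxb-90 had 2.41 FPKM in germline-depleted and 0.751 FPKM in germline control worms, and 3.83 FPKM in soma-depleted and 3.86 FPKM in soma control worms (germline log2 fold change 1.66, adjusted p = 2.2e-06, authors' deposited table). fbxb-45, the fbxb gene with the smallest adjusted p, had 10.6 FPKM in germline-depleted and 3.44 FPKM in germline control worms, and 14.04 FPKM in soma-depleted and 14.01 FPKM in soma control worms (germline log2 fold change 1.62). The most abundant fbxb gene was fbxb-66, at 22.6 FPKM in germline-depleted and 8.16 FPKM in germline control worms, against 21.7 FPKM in soma-depleted and 19.1 FPKM in soma control worms (germline log2 fold change 1.47, adjusted p = 9.0e-10, authors' deposited table). The other 36 fbxb genes stayed under 20 FPKM in all 4 groups.

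**Figure D2:**
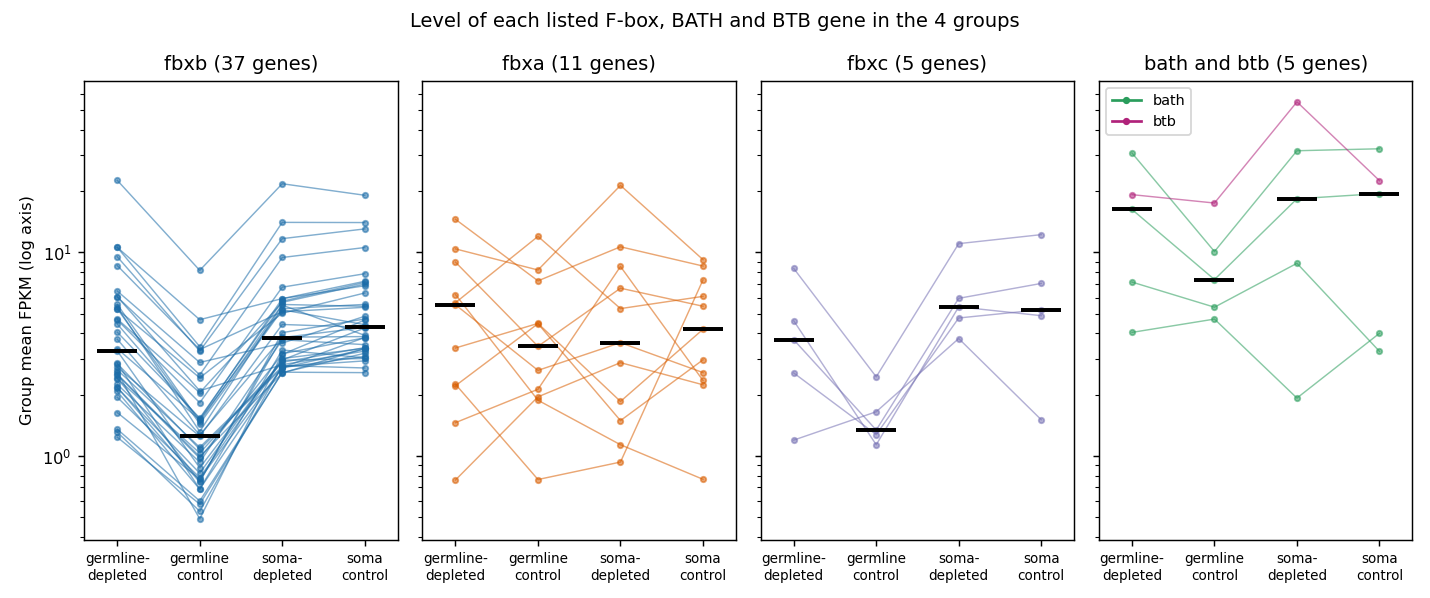
Each coloured line is 1 gene, with its authors' mean FPKM (log axis) in germline-depleted, germline control, soma-depleted and soma control worms, in a panel per subfamily; black bars are medians over the genes of a panel. The fbxb median is 3.28, 1.25, 3.81 and 4.28 FPKM in that order of groups, with every fbxb line lowest at the germline control.

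The germline control mean was the lowest of the 4 groups for all 37 fbxb genes, and for 33 of them the next group was at least 2 times higher. The 4 exceptions to that margin were fbxb-81, fbxb-82, fbxb-83 and fbxb-7. Median levels over the 37 genes were 3.28 FPKM in germline-depleted, 1.25 FPKM in germline control, 3.81 FPKM in soma-depleted and 4.28 FPKM in soma control worms. In 19 of the 37 genes the order ran germline control, germline-depleted, soma-depleted, soma control from low to high, and soma control was the highest group in 23. The germline-depleted mean was the highest of the 4 in 7 genes: fbxb-3, fbxb-7, fbxb-66, fbxb-77, fbxb-81, fbxb-82 and fbxb-83.

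fbxb-81, fbxb-82 and fbxb-83 are neighbours on the minus strand of chromosome III (140072 to 145211, WBcel235), and they shared an order, with fbxb-7, in which germline-depleted worms were the highest group. fbxb-82 had 6.06 FPKM in germline-depleted worms, against 2.09 FPKM in germline control, 2.805 FPKM in soma-depleted and 3.27 FPKM in soma control worms. fbxb-81 had 6.46, 2.88, 3.58 and 4.85 FPKM in the same order of groups, and fbxb-83 had 10.6, 4.67, 5.93 and 6.85 FPKM. In these 3 genes germline-depleted worms stood above both soma groups. fbxb-7 (chromosome V) had 8.62 FPKM in germline-depleted and 3.33 FPKM in germline control worms, and 5.11 FPKM in soma-depleted and 5.37 FPKM in soma control worms. The authors' deposited table gives germline log2 fold changes of 1.16 for fbxb-81, 1.53 for fbxb-82, 1.176 for fbxb-83 and 1.37 for fbxb-7. fbxb-83 overlaps the annotated gene T17A3.12.

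Over all 58 genes the germline control was the lowest group in 48 (82.8%), against 343 of the 882 listed genes (38.9%); without the fbxb genes it was lowest in 11 of 21 (52.4%). Of the 48 genes higher in the germline comparison it was lowest in 46 (95.8%); among the 321 other listed genes that were higher it was lowest in 255 (79.4%). In the same 48 genes the germline-depleted mean was below both soma groups in 31, between them in 6 and above both in 11. It was the highest group in 22.9% of the 48, against 41.1% of the 321 others. Set against soma control worms, the median ratio over the 48 genes was 0.739 for germline-depleted worms and 0.268 for germline control worms. These ratios set means of different strains side by side and have no test; the TIR1 transgene, the strain and any other difference between the control strains cannot be told apart.

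**Figure D3:**
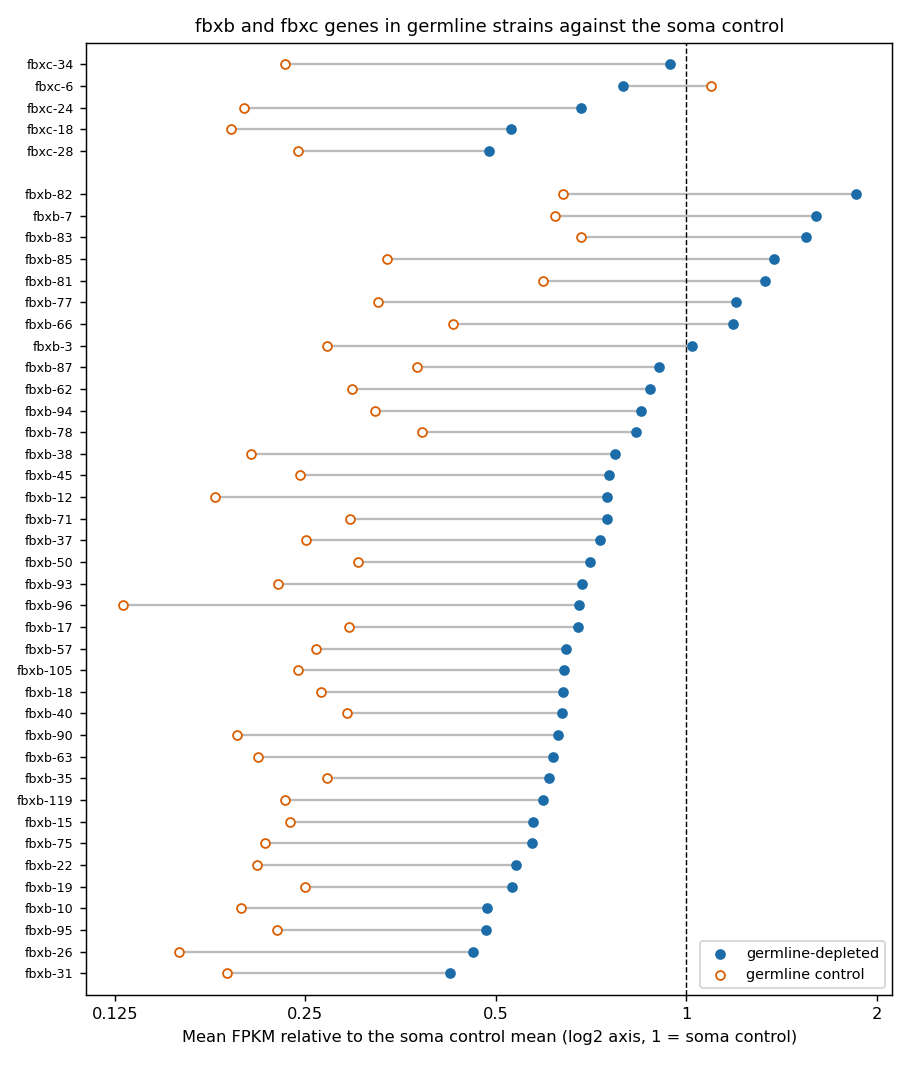
For each of the 37 fbxb and 5 fbxc genes, ordered within its subfamily, filled points give the germline-depleted mean FPKM and open points the germline control mean FPKM, each divided by the soma control mean (log axis, dashed line at 1). Among the fbxb genes filled points lie between 0.424 and 1.85 and open points between 0.129 and 0.681, and fbxc-6 is the gene whose open point lies to the right of its filled one.

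The 5 fbxc genes, a further nematode F-box group, lie between 907448 and 967062 on chromosome II, and 4 of them were higher after germline depletion. fbxc-34 had 4.61 FPKM in germline-depleted and 1.13 FPKM in germline control worms, and 5.40 FPKM in soma-depleted and 4.885 FPKM in soma control worms (germline log2 fold change 2.03, adjusted p = 2.5e-07, authors' deposited table). fbxc-24 had 8.34 FPKM in germline-depleted and 2.445 FPKM in germline control worms, and 11.04 FPKM in soma-depleted and 12.2 FPKM in soma control worms (germline log2 fold change 1.77, adjusted p = 3.9e-09, authors' deposited table). These genes shared the low germline control of the fbxb genes. fbxc-18 had 3.72, 1.34, 5.945 and 7.035 FPKM in germline-depleted, germline control, soma-depleted and soma control worms, and fbxc-28 had 2.55, 1.27, 4.76 and 5.23 FPKM. The authors' deposited table gives a germline log2 fold change of 1.46 for fbxc-18 and of 1.002 for fbxc-28, the weakest of these calls (adjusted p = 0.00678).

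fbxc-6, annotated as a pseudogene, departed from its neighbours. It had 1.195 FPKM in germline-depleted and 1.65 FPKM in germline control worms (log2 fold change -0.45, adjusted p = 0.333, authors' deposited table) and rose in the soma comparison, with 3.77 FPKM in soma-depleted and 1.505 FPKM in soma control worms (log2 fold change 1.31, adjusted p = 0.00334). Soma-depleted worms were the high group, and the other 3 groups lay below 2 FPKM.

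The 11 fbxa genes, F-box genes that often carry a DUF38 (FTH) domain, had shares near those of all listed genes in the germline. In that comparison 5 were higher (45.5%, against 41.8%), 3 lower (27.3%, against 21.1%) and 3 not called. In the soma comparison 2 were higher (18.2%, against 29.7%), 3 lower (27.3%, against 29.8%) and 6 not called. Their germline log2 fold changes ran between -1.35 and 1.72 with a median of 0.34, and 4 of 11 (36.4%) had the germline control as the lowest group.

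fbxa-125 had 6.20 FPKM in germline-depleted worms, against 1.88 FPKM in germline control, 1.13 FPKM in soma-depleted and 0.767 FPKM in soma control worms. Its germline-depleted mean was 8.09 times the soma control mean, the highest such ratio of the 58 genes, and the authors' deposited table gives a germline log2 fold change of 1.72 (adjusted p = 2.9e-09). Here the germline-depleted group stood alone at the top. fbxa-216 had 8.95 FPKM in germline-depleted and 3.45 FPKM in germline control worms, beside 6.67 FPKM in soma-depleted and 5.44 FPKM in soma control worms (germline log2 fold change 1.37, adjusted p = 2.5e-10, authors' deposited table). fbxa-145 had 14.5, 7.24, 10.7 and 8.57 FPKM and fbxa-113 had 5.53, 2.63, 3.60 and 2.57 FPKM in germline-depleted, germline control, soma-depleted and soma control worms. Their germline log2 fold changes were 1.003 and 1.06, per the authors' deposited table; fbxa-113 overlaps fbxb-59. fbxa-125 and fbxa-113 are the 2 genes of the 48 in which the germline control was not the lowest group.

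fbxa-186, fbxa-152 and fbxa-185 were the 3 genes that fell after germline depletion. fbxa-152 had 5.66 FPKM in germline-depleted and 11.98 FPKM in germline control worms, and 5.29 FPKM in soma-depleted and 6.08 FPKM in soma control worms (germline log2 fold change -1.08, adjusted p = 4.2e-09, authors' deposited table). Germline control worms were the high group for it, the opposite of the fbxb order. The pseudogene fbxa-186 had 0.761 FPKM in germline-depleted and 1.95 FPKM in germline control worms, with 2.87 FPKM in soma-depleted and 2.235 FPKM in soma control worms (germline log2 fold change -1.35, adjusted p = 4.7e-05, authors' deposited table). fbxa-185 fell in both comparisons, with 2.21 FPKM in germline-depleted and 4.46 FPKM in germline control worms and with 1.49 FPKM in soma-depleted and 2.96 FPKM in soma control worms. The authors' deposited table gives it -1.01 on the log2 scale (adjusted p = 1.8e-05) in the germline and -0.997 (adjusted p = 6.6e-04) in the soma.

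fbxa-163 and fbxa-189 rose after somatic depletion. fbxa-163 had 8.525 FPKM in soma-depleted and 2.35 FPKM in soma control worms (log2 fold change 1.86, adjusted p = 4.1e-12, authors' deposited table), against 1.46 FPKM in germline-depleted and 2.12 FPKM in germline control worms (log2 fold change -0.56, adjusted p = 0.0710). The soma-depleted group alone was high. fbxa-189 had 21.3 FPKM in soma-depleted and 9.21 FPKM in soma control worms (log2 fold change 1.21, adjusted p = 2.9e-15, authors' deposited table) and a smaller rise in the germline, with 10.4 FPKM in germline-depleted and 8.19 FPKM in germline control worms (log2 fold change 0.34, adjusted p = 0.0329).

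Besides fbxa-185, fbxa-172 and fbxa-92 fell after somatic depletion. fbxa-172 had 1.85 FPKM in soma-depleted and 4.185 FPKM in soma control worms (log2 fold change -1.18, adjusted p = 2.3e-06, authors' deposited table), and 3.39 FPKM in germline-depleted and 4.475 FPKM in germline control worms (log2 fold change -0.40, adjusted p = 0.0951). fbxa-92, typed as protein-coding in the deposited table and as a pseudogene in release 115, had 0.932 FPKM in soma-depleted and 7.32 FPKM in soma control worms (log2 fold change -2.98, adjusted p = 0.0282, authors' deposited table). It had 2.25 FPKM in germline-depleted and 0.765 FPKM in germline control worms (log2 fold change 1.56, adjusted p = 0.210). The soma control is the mean of only 2 samples, and fbxa-92 combined the largest soma difference of the 58 with the weakest adjusted p of the 9 called genes.

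The 4 bath genes, whose products are BTB and MATH proteins of the kind that serve CUL-3, split evenly. bath-10 had 30.8 FPKM in germline-depleted and 10.1 FPKM in germline control worms, and 31.6 FPKM in soma-depleted and 32.3 FPKM in soma control worms (germline log2 fold change 1.61, adjusted p = 9.5e-14; soma log2 fold change -0.03; authors' deposited table). Its neighbour bath-9 had 16.25 FPKM in germline-depleted and 7.35 FPKM in germline control worms, and 18.3 FPKM in soma-depleted and 19.5 FPKM in soma control worms (germline log2 fold change 1.14, adjusted p = 2.9e-08, authors' deposited table). bath-9 overlaps the annotated gene Y49F6C.2. Both repeated the fbxb order at higher levels, with germline control worms low and the other groups near each other.

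bath-25 and bath-47 were called in the soma and not in the germline. bath-25 had 8.84 FPKM in soma-depleted and 3.26 FPKM in soma control worms (log2 fold change 1.44, adjusted p = 8.8e-07, authors' deposited table), and 7.145 FPKM in germline-depleted and 5.38 FPKM in germline control worms (log2 fold change 0.41, adjusted p = 0.161). bath-47 had 1.92 FPKM in soma-depleted and 4.0 FPKM in soma control worms (log2 fold change -1.06, adjusted p = 2.4e-05, authors' deposited table), and 4.04 FPKM in germline-depleted and 4.70 FPKM in germline control worms (log2 fold change -0.21, adjusted p = 0.403). The btb gene, btb-17, had the highest level of the 58 genes, at 54.9 FPKM in soma-depleted and 22.5 FPKM in soma control worms (log2 fold change 1.28, adjusted p = 3.8e-13, authors' deposited table). It had 19.2 FPKM in germline-depleted and 17.5 FPKM in germline control worms (log2 fold change 0.14, adjusted p = 0.523), so soma-depleted worms alone stood out.

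Many genes of these families, listed or not, sit on an arm of chromosome II. Of all 412 named family genes, 184 are on chromosome II and 168 lie in its first 4 Mb. Of the 58 genes, 28 (48.3%) lie in that window, against 78 of all 882 listed genes (8.84%). This share thus describes where the families sit and is not a result about the listed members. Of the 28 genes 18 are fbxb. After germline depletion 24 of the 28 were higher, against 41.8% of all listed genes, and none lower, against 21.1%, by the authors' DESeq2 adjusted p. The share higher is near that of all 58 genes, of which 48 (82.8%) were higher, and is not a result about the window. Chromosome V holds 11 members, I and III hold 7 each, IV holds 4 and X holds 1.

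Members within 10 kb of each other formed 11 runs that hold 26 of the 58 genes, and in 8 runs every member was higher in the germline comparison. Over all 58 genes 48 (82.8%) were higher, among them all 37 fbxb genes. The count of such runs thus describes the members and is not a result about neighbours. The longest of the 8 runs has 4 fbxb genes, fbxb-17, fbxb-26, fbxb-18 and fbxb-19 (chromosome II, 1676388 to 1689181), of which fbxb-18 and fbxb-19 overlap. bath-10 and bath-9 (chromosome II, 3375079 to 3378834) are 367 bp apart. Besides fbxb-81 to fbxb-83 and fbxc-28 with fbxc-34, the other uniformly higher runs are fbxb-93 with fbxb-94 (chromosome I, 14083045 to 14086685), fbxb-45 with fbxb-40 (chromosome II, 1042937 to 1049949), fbxb-96 with fbxb-95 (chromosome II, 1849361 to 1855365) and fbxb-62 with fbxb-63 (chromosome V, 19301017 to 19303730).

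Within the run of 4, fbxb-17 had 4.71 FPKM in germline-depleted and 2.04 FPKM in germline control worms, and 5.68 FPKM in soma-depleted and 6.98 FPKM in soma control worms. fbxb-26 had 2.17, 0.743, 4.03 and 4.70 FPKM, fbxb-18 had 2.245, 0.930, 3.72 and 3.52 FPKM and fbxb-19 had 1.63, 0.769, 2.71 and 3.08 FPKM in the same order of groups. All 4 had germline-depleted worms above germline control worms and below both soma groups. Germline log2 fold changes of the run lay between 1.06 for fbxb-19 and 1.54 for fbxb-26, per the authors' deposited table.

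The pairs had the same order for the germline control. fbxb-62 had 3.74 FPKM in germline-depleted and 1.27 FPKM in germline control worms, and fbxb-63 had 4.445 FPKM in germline-depleted and 1.515 FPKM in germline control worms, with a log2 fold change of 1.55 for each in the authors' deposited table. Their soma values were 3.81 and 5.92 FPKM in soma-depleted worms and 4.28 and 7.21 FPKM in soma control worms. fbxb-93 and its pseudogene neighbour fbxb-94 had 2.07 and 2.84 FPKM in germline-depleted worms and 0.686 and 1.08 FPKM in germline control worms (log2 fold changes 1.60 and 1.39, authors' deposited table). Members of a pair could differ in size: fbxb-96 had a germline log2 fold change of 2.38 and fbxb-95 one of 1.07, at 1.235 FPKM in germline-depleted and 0.579 FPKM in germline control worms, and fbxb-45 had 1.62 and fbxb-40 1.11, at 2.72 FPKM in germline-depleted and 1.25 FPKM in germline control worms. These differences between genes were not tested.

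Neighbours did not always move together. bath-47 and fbxa-163 (chromosome II, 1601811 to 1610730) lie in 1 run, and in the soma comparison bath-47 fell while fbxa-163 rose. In the run of fbxa-185, fbxa-186 and fbxa-189 (chromosome V, 17331640 to 17347781) the first fell in both comparisons, the second fell in the germline only by the authors' calls, and the third rose in both; a difference between the comparisons was not tested. fbxc-6 and fbxc-18 (chromosome II, 956674 to 967062) were called in different comparisons.

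Listed and unlisted fbxb genes had similar structures by count. Of the 35 listed protein-coding fbxb genes, 29 (82.9%) have 2 coding exons and 6 have 3, with a median coding length of 945 bp. Of the 69 that are not listed, 58 (84.1%) have 2 coding exons, with a median of 951 bp. The listed fbxa genes have between 2 and 10 exons.

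Of 22 Skp1-related genes, which encode adaptors that F-box proteins bind, 9 are in the table. In the germline comparison 8 of the 9 were higher, against 41.8% of all listed genes, and none lower, against 21.1%. In the soma comparison 1 was lower, against 29.8%, and none higher, against 29.7%, by the authors' DESeq2 adjusted p. skr-8, skr-12 and skr-10 led (1.93, 1.91 and 1.84 as germline log2 fold change, authors' deposited table). skr-8 had 50.2 FPKM in germline-depleted and 13.2 FPKM in germline control worms, beside 49.5 FPKM in soma-depleted and 57.3 FPKM in soma control worms. skr-21, the most abundant, had 90.4 FPKM in germline-depleted and 40.8 FPKM in germline control worms, and 90.4 FPKM in soma-depleted and 101 FPKM in soma control worms. All 8 higher skr genes had the germline control as the lowest group, as did 255 of the 321 higher listed genes outside the F-box, BTB, BATH and MATH families (79.4%). None of the 8 was called in the soma, so each had to pass in the germline to be listed. The number called is thus set by the table and the direction is not. skr-5, which fell in the soma (9.315 FPKM in soma-depleted and 18.9 FPKM in soma control worms, log2 fold change -1.02, adjusted p = 5.9e-07, authors' deposited table), had 18.6 FPKM in germline-depleted and 18.4 FPKM in germline control worms (log2 fold change 0.018, adjusted p = 0.945).

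None of 8 cullin and Rbx genes, 15 genes of cullin regulation, 13 other F-box genes or 19 other BTB and MATH genes is in the table, so nothing can be said here of their levels. Other genes of the whole-worm samples moved as well. Of 80 early embryonic genes, which mark the embryos that gravid adults carry, 14 are listed. In the germline comparison 11 were higher, against 41.8% of all listed genes, and 2 were lower, against 21.1%. In the soma comparison 2 were lower, against 29.8%, and none higher, against 29.7%, by the authors' DESeq2 adjusted p. The other 12, not called in the soma, had to pass in the germline to be listed. The 11 with the germline control lowest include vet-1, at 46.8 FPKM in germline-depleted and 13.2 FPKM in germline control worms against 41.6 FPKM in soma-depleted and 47.9 FPKM in soma control worms. sdz-24, lower in both comparisons, had 172.8 FPKM in germline-depleted and 388 FPKM in germline control worms, and 94.9 FPKM in soma-depleted and 248 FPKM in soma control worms. The zygotic transcription factor gene end-3, which specifies endoderm, had 2.85, 0.833, 2.16 and 1.93 FPKM in germline-depleted, germline control, soma-depleted and soma control worms. The median over the 14 genes was 5.725 FPKM in germline-depleted, 2.73 FPKM in germline control, 6.85 FPKM in soma-depleted and 8.45 FPKM in soma control worms, and their summed level was 549.9, 554.0, 507.09 and 641.0 FPKM in the same order. The part of embryo content in the values of the F-box genes was not tested.

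Heat shock genes ran the other way, with 10 of 20 listed. All 10 were lower in the germline comparison, against 21.1% of all listed genes, and 9 were higher in the soma comparison, against 29.7%. Their summed levels were 561 FPKM in germline-depleted, 1746 FPKM in germline control, 600 FPKM in soma-depleted and 242 FPKM in soma control worms. The germline control was the highest group for all 10, against 23.6% of all listed genes. Of 58 sperm genes 19 are listed. In the germline comparison 4 were higher, against 41.8% of all listed genes, and in the soma comparison all 19 were higher, against 29.7%. The other 15, not called in the germline, had to pass in the soma to be listed. For them the call is set by the table and the direction is not. None of 30 oocyte and germline genes or 10 muscle genes is listed, and 2 of 15 intestine genes are. The part of these differences in the values of the F-box genes was not tested.

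The deposited splicing table has 57 events, of 3096 (1.84%), whose overlapping transcripts carry a name of these families, over 41 gene names. By subfamily, 20 fbxa genes have 30 events, 7 bath genes 11, 8 math genes 10, 3 fbxb genes share 2, 2 btb genes have 2 and 1 fbxc gene has 2. Release 115 has 170 fbxa, 36 bath, 37 math, 104 fbxb, 17 btb and 48 fbxc protein-coding genes. Some of the names with events are pseudogenes there, so no shares are given. Most fbxb genes have only 2 coding exons. The counts were not adjusted for subfamily size or exon number. In the germline comparison 22 of the 57 events (38.6%) passed a q-value of 0.05, against 25.7% of all events, and in the soma comparison 34 (59.6%) did so, against 51.9%. Each of the 57 was called somewhere: 51 in these comparisons and 6 only between sperm-producing and oocyte-producing worms of another study. Only 31 of the 57 have a q-value for those worms, against 2460 of all 3096 events. The rest were all called in a depletion comparison, which bears on the shares above, and they describe listed events only. Of the 51, 5 were called in both comparisons, 17 in the germline alone and 29 in the soma alone. Whether an event differed between the comparisons was not tested. Each value is an inclusion level difference, a difference between groups in the share of transcripts that include the alternative sequence; which group was subtracted is not stated, so signs are given as deposited.

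Event types among the families differed in make-up from the whole table, mainly in retained introns and alternative 3′ splice sites. In the soma comparison 12 of 34 (35.3%) were retained introns, against 17.6% of all called events, and 10 (29.4%) were alternative 3′ splice sites, against 62.1%. Another 8 (23.5%) were skipped exons, against 10.96%, and 4 (11.8%) were alternative 5′ splice sites, against 8.72%. In the germline comparison 9 of 22 (40.9%) were alternative 3′ splice sites, against 54.9%, and 8 (36.4%) were retained introns, against 18.8%. There, 3 (13.6%) were alternative 5′ splice sites, against 11.18%, and 2 (9.09%) were skipped exons, against 13.7%. These shares have no test, and events of a gene are not independent: fbxa-55 alone has 7 events that share their start on chromosome III, at 933839, and 6 of them are among the 8 soma-called skipped exons. The soma alternative 3′ splice site differences were negative in 9 of 10 events, near the 92.6% over all such events.

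**Figure D4:**
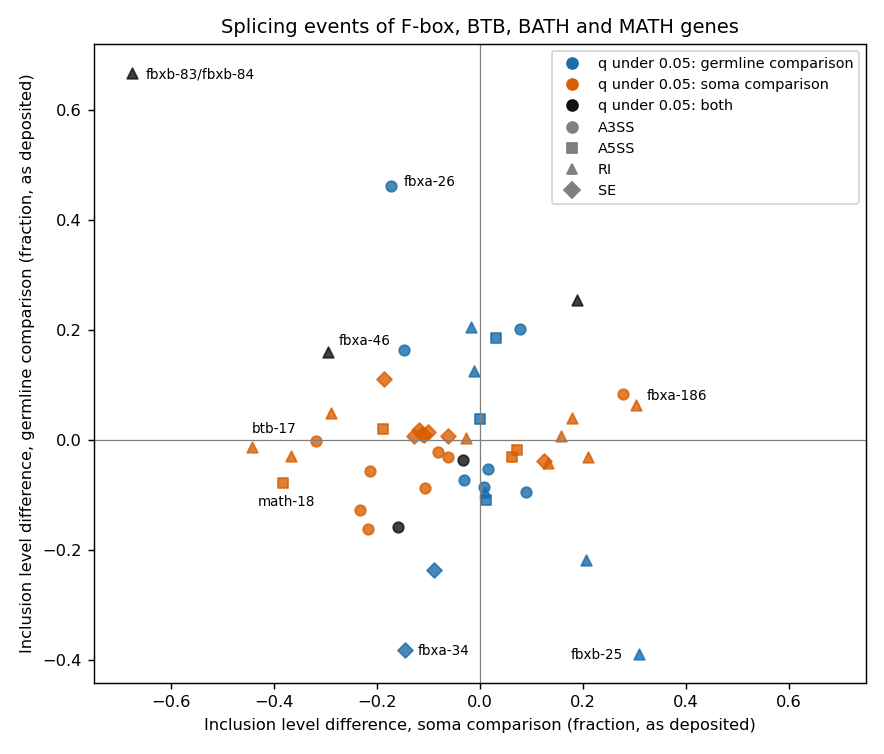
Each point is 1 of the 51 family events called in the germline or the soma comparison, by its deposited inclusion level difference in the soma comparison (horizontal axis) and in the germline comparison (vertical axis), with colour for the comparison in which it was called and shape for the event type (A3SS and A5SS, alternative 3′ and 5′ splice sites; RI, retained intron; SE, skipped exon). Most points lie near an axis, and the fbxb-83/fbxb-84 event stands at the upper left, at 0.667 in the germline and -0.677 in the soma.

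The largest difference was a retained intron that spans fbxb-83, T17A3.12 and fbxb-84 on the minus strand of chromosome III (144486 to 146336), with 0.667 in the germline (q = 3.4e-05) and -0.677 in the soma (q = 0.00126). The interval crosses 3 annotated genes, and fbxb-83 itself rose after germline depletion. The pseudogene fbxa-46 (chromosome X, 1983897 to 1984581) also had opposite signs at a retained intron, 0.159 in the germline (q = 0.0309) and -0.295 in the soma (q = 0.0218). The other 3 shared events kept their sign. A retained intron of fbxc-45 had 0.255 in the germline and 0.188 in the soma, and an alternative 3′ splice site of math-33 (chromosome V, 11117886 to 11117964), which encodes a deubiquitinase related to human USP7, had -0.158 and -0.159. bath-43, renamed spop-1 for its relation to the CUL-3 receptor SPOP, had -0.036 and -0.033 at an alternative 3′ splice site in an interval that also overlaps gtf-2H2C.

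Of the 58 genes with expression values, 5 have an event: btb-17, fbxa-172, fbxa-186, fbxa-189 and fbxb-83. btb-17, which rose after somatic depletion, had a retained intron (chromosome II, 3295625 to 3296221) at -0.443 in the soma, with a q-value listed as 0, and -0.013 in the germline (q = 1). The retained intron of fbxa-189 (chromosome V, 17346131 to 17346367; the antisense-strand gene fbxa-188 is named for the same interval) had -0.368 in the soma (q = 8.4e-06), where fbxa-189 also rose. The pseudogene fbxa-186 had 0.303 in the soma (q = 0.00531), where its level was not called, and fbxa-172 had -0.218 in the germline (q = 0.00878), where its level was not called either.

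Other large differences belonged to genes without listed expression values. In the germline these were an alternative 3′ splice site of fbxa-26 at 0.461 (q = 1.7e-04), a retained intron of fbxb-25 at -0.389 (q = 0.0287) and a skipped exon of the pseudogene fbxa-34 at -0.382 (q = 0.00253). In the soma they were an alternative 5′ splice site of math-18 at -0.382 (q = 0.0138) and an alternative 3′ splice site of math-22 at -0.319, with a q-value listed as 0. Retained introns around math-3, where math-27 and neighbours are named for the same intervals, had 0.157, 0.178 and 0.210 in the soma.

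The same table carries values of another study, for sperm-producing against oocyte-producing worms. Of the 31 family events with a q-value there, 14 (45.2%) were under 0.05, against 65.0% of all events with a q-value, and 6 of the 14 were called in neither depletion comparison. The math-33 site described above had 0.298 there, and another alternative 3′ splice site of math-33 (11114301 to 11114645) had 0.314, both with a q-value listed as 0. bath-43 had 0.022 and 0.086 at its alternative 3′ splice sites.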

How the data were processed

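Poly(A)+ RNA of 11 samples in 4 groups was measured, per the labels. The authors deposited group mean FPKM, log2 fold changes, Benjamini-Hochberg adjusted p-values and a mean count over all samples, which is not whole and is treated as a signal of unknown scaling in the deposited table. The authors deposited splicing events with q-values and an inclusion level difference, a score between -1 and 1. Reads were trimmed and aligned to WBcel235/ce11 and genes tested with tools that include DESeq2 1.26.0, STAR 2.7.2a, Trim Galore 0.6.0, SAMtools 1.7 and cutadapt 1.18, per the submitters' processing notes; the read counter and the splicing caller were not given in the sources used here. Identifiers follow Ensembl 97, per the file headers; positions and structures came from release 115 (WBcel235), where 881 of 882 were found.

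The file header describes germline fold changes as taken over soma control worms, but the deposited log2 fold changes lay within 0.1 of log2(germline-depleted/germline control FPKM) for 882 of 882 genes, and within 0.1 of the soma ratio for 880. They are read so here. Event starts count from 0 (an annotated exon began 1 base after the listed start in 2396 events and at it in 10) and are given counted from 1.

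Members were taken by name prefix, and calls were counted at 0.05 with Python 3.11.15, numpy 2.4.6, pandas 2.3.3 and matplotlib 3.10.9. No model could be fitted to group means, as depth and spread per sample are unknown; the counting was tested on simulated data. Named genes are all members of subfamilies with at most 8 genes, otherwise the 8 with the largest absolute fold change; the most abundant of each; all that fell in the germline or were called in the soma or in both; those with events or in close runs; and up to 6 per list. Genes with events alone were named by the size of their difference. The members and lists were chosen with earlier results of these data known. Alternatives were other thresholds, pseudocounts, counts, runs and member sets. The replicates were separate biological samples per the labels.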

Additional observations from a re-analysis of the deposited data

How the results depend on the processing

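No paired analysis was possible because the deposited values are group means and comparisons, so neither a replicate block nor leaving out each replicate was run. The 51 germline calls of 58 genes became 28 of 33 (84.8%) at a mean count of at least 100. Without the fbxb genes they became 14 of 21 (66.7%), near the 62.9% of all listed genes. The other alternatives gave between 37 of 43 and 59 of 67, with shares between 81% and 90.6%. The 9 soma calls (15.5%) became between 7 and 10, over sets of different size. Their share ran between 13.2% for genes annotated as protein-coding and 42.9% without the fbxb genes. The threshold of 1 on the absolute log2 fold change, an alternative here, was also a rule for listing. Leaving out the fbxb genes, genes not annotated as protein-coding, or genes that overlap another were alternatives chosen after seeing the data. The germline median log2 fold change of 1.33 was 1.25 with FPKM ratios at a pseudocount of 0.1, 0.88 at a pseudocount of 1, 1.13 as a mean and 1.35 with 1 gene per run; the soma median of -0.15 was -0.14, -0.12 and -0.060 under the first 3 of these. Without the fbxb genes the medians were 1.002 in the germline and 0.14 in the soma, a change of sign, and the germline control was lowest in 11 of 21 genes. Geometric means were 4.13 FPKM in germline-depleted, 1.91 in germline control, 4.81 in soma-depleted and 4.99 in soma control worms, and medians with 1 gene per run were 4.05, 1.65, 3.83 and 4.41 FPKM, against 3.89, 1.52, 4.23 and 4.35 FPKM for all 58. The germline control was lowest in 41 of the 58 by at least 1.5 times, and in 35 genes with 1 gene per run. The 51 called splicing events became 30 at q under 0.01 and 21 at an absolute difference of at least 0.2. Called log2 fold changes had the same sign when taken as FPKM ratios. A pseudocount added to both means cannot change which is larger, so the pseudocounts do not test direction. The deposited soma values of fbxb-45 and fbxb-95, not called and within 0.01 of 0, were negative where the FPKM ratios were just above 1. That change of sign comes from the FPKM ratio and not from the pseudocount. At 1 to 3 FPKM a pseudocount of 1 shrinks a ratio by construction. Without values per sample, precision at these low levels is unknown.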

Other observations

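The first 4 Mb of chromosome II holds 50 listed genes outside these families. Of these, 29 were higher in the germline comparison, against 41.8% of all listed genes, and 9 lower, against 21.1%, by the authors' deposited table. Of 57 pathogen response genes only C53A5.9, drd-50 and skr-5 are listed. C53A5.9 had 3.47 FPKM in germline-depleted and 1.10 FPKM in germline control worms, and 2.14 FPKM in soma-depleted and 0.967 FPKM in soma control worms; it was higher in both comparisons by the authors' deposited table (log2 fold change 1.66 in the germline and 1.14 in the soma). drd-50 was likewise higher in both (1.203 in the germline and 1.36 in the soma, authors' deposited table).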
